A study of Mus musculus with 24 samples.

Results

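The striated muscle myosin heavy chains Myh1, Myh2, Myh3, Myh4, Myh6, Myh7, Myh7b, Myh8 and Myh13 were followed through RNA-seq libraries of the mouse retinal pigment epithelium (RPE), the pigmented layer behind the photoreceptors. They were chosen by name and by no cut on values, though with earlier results of these data known, and are 9 of the 53700 genes in the count table. Libraries came from RPE Bmal1 KO mice (KO, 12 libraries) and RPE Bmal1 WT mice (WT, 12 libraries), with 3 mice of each genotype at ZT1, ZT7, ZT13 and ZT19, hours after lights on in a 12:12 light:dark cycle. The mice were C57BL/6 males and females of 12 to 16 weeks, and by the study's methods all carried Rpe-CRE, a doxycycline-dependent Cre driven by the Vmd2 promoter of the RPE, and floxed Bmal1 (Bmal1 fl/fl). The methods give doxycycline food on postnatal days 60 to 74 to RPE Bmal1 KO mice and regular food to RPE Bmal1 WT mice, whereas the sample records give doxycycline food throughout, so the groups follow the genotype labels. Each library pooled the 2 RPE isolates of 1 mouse, freed by brief sonication from a posterior eye cup with its choroid and sclera, and the sources do not say whether the eye muscles were trimmed from it.

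A myosin heavy chain is the motor of the thick filament: its head splits ATP and pulls on actin, and its isoform sets how fast a muscle fibre shortens. Limb and trunk muscles of the mouse use the fast forms Myh4 (type IIb), Myh1 (type IIx) and Myh2 (type IIa) and the slow form Myh7 (type I), which is also the beta form of the heart, while Myh6 is the alpha form of the atria and of the adult mouse ventricle. Myh3 (embryonic) and Myh8 (neonatal) are developmental forms that most muscles lose after birth. The extraocular muscles, which move the eye and insert on the sclera, are known for keeping the developmental forms into adult life, for a superfast form of their own, Myh13, and for slow-tonic fibres, a form encoded by Myh7b. The RPE itself is an epithelium and uses nonmuscle myosins.

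Total counts per library ran from 2069527 to 10572612 (median 7000040.5). Values are given as CPM, counts scaled to a common library size after TMM scaling. All 9 myosin genes passed the filter on low counts, with totals over the 24 libraries between 1459 counts for Myh6 and 85762 counts for Myh4. RPE markers were present in every library, with a sum over 10 genes such as Rgr, Tyrp1 and Pmel of 1990 to 3350 CPM in KO and 1182 to 3728 CPM in WT. Of 8 markers of heart muscle only 4 had enough counts to be tested, and the natriuretic peptide gene Nppa (0 to 0.891 CPM), the atrial light chain Myl7 (0 to 2.01 CPM), the cardiac troponin Tnni3 (0 to 4.01 CPM), the cardiac factor Nkx2-5 (0 to 3.51 CPM) and Nppb (0 to 2.67 CPM) had 0 counts in at least 1 library. The other 3 were counted in every library, namely the pacemaker channel Hcn4, which neurons also use, at 2.25 to 17.2 CPM, the cardiac myosin-binding protein Mybpc3 at 1.06 to 8.91 CPM and Ankrd1 at 0.138 to 8.02 CPM. Arntl, which encodes BMAL1, ran from 9.80 to 88.6 CPM and did not pass the test between genotypes (edgeR, adjusted p = 0.959, with a log2 difference of 0.17 and an SE of 0.23). At ZT1 its 3 KO libraries, at 81.1 to 88.6 CPM, all lay above its 3 WT libraries, at 46.2 to 77.9 CPM, as did those of 9.84% of all genes. Counts are given per gene and not per exon, so the genotype labels were not checked by them. In these bulk libraries fewer muscle cells and less RNA per muscle cell cannot be told apart.

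Of the 9 genes, 6 stand in a row on the forward strand of chromosome 11 (mm10), in the order Myh3 (67078300 to 67102291), Myh2 (67171027 to 67197517), Myh1 (67200052 to 67224575), Myh4 (67238029 to 67260446), Myh8 (67277124 to 67308634) and Myh13 (67321658 to 67371586). The heart pair Myh6 (54941921 to 54966927) and Myh7 (54970684 to 54994626) lies on the reverse strand of chromosome 14, and Myh7b (155611212 to 155634307) on the forward strand of chromosome 2. Upstream of the RefSeq starts of Myh2 (67171027), Myh1 (67200102), Myh4 (67237812) and Myh8 (67277124), neighbours that follow each other on chromosome 11, the RefSeq sequence (GRCm38.p6) holds shared blocks. They are shown because these 4 genes also moved together from library to library, with r of log2 CPM down to 0.76 (Myh4 with Myh8). Myh7 and Myh13, with neither block in the windows searched, moved with them as well (r with Myh1 0.95 and 0.96). Whether the blocks bear on the levels was not tested. Each stretch below has 130 bases, read 5′ to 3′, and capitals mark the shared blocks.
Myh2, chr11:67170822-67170951: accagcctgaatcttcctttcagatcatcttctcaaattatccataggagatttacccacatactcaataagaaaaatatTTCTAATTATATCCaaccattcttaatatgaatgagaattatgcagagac
Myh1, chr11:67199862-67199991: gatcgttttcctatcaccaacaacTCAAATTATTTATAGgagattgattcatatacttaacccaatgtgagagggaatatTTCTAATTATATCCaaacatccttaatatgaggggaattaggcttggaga
Myh4, chr11:67237574-67237703: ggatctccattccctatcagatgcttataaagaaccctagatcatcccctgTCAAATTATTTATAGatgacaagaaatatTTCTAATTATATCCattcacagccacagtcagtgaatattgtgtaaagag
Myh8, chr11:67276990-67277119: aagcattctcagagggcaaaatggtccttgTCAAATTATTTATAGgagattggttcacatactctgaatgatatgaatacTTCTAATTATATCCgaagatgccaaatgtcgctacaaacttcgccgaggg
The block TTCTAATTATATCC starts 160 bases before the RefSeq start of Myh1, 125 before that of Myh2, 158 before that of Myh4 and 54 before that of Myh8. For Myh1 and Myh4 these starts differ from the GENCODE starts given above. The block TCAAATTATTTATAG starts 216 bases before the RefSeq start of Myh1, 187 before that of Myh4 and 104 before that of Myh8. Both strands of the 250 bases before the start were searched in 27025 genes, and the first block was found in those 4 genes alone (0.0148%) and the second in those 3 alone (0.0111%). Since the blocks were read off these genes, their rarity elsewhere is a description. Neither was in the windows of Myh3, Myh6, Myh7, Myh7b or Myh13, and for Myh13 the RefSeq start (67327103) lies inside the gene as GENCODE draws it.

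The fast myosin Myh4 had the highest mean CPM of the 9 genes and differed widely between mice of the same group. It was at 59.1, 83.2 and 117 CPM in KO and 1906, 171 and 143 CPM in WT at ZT1. At ZT7 it was at 124, 70.4 and 944 CPM in KO and 198, 882 and 196 CPM in WT. Thus a single library stood far above its group mates in WT at ZT1, in KO at ZT7 and in WT at ZT7. At ZT13 the values were 104, 203 and 856 CPM in KO and 751, 123 and 699 CPM in WT, and at ZT19 they were 360, 164 and 774 CPM in KO and 324, 737 and 955 CPM in WT. The genotypes overlapped at ZT7, ZT13 and ZT19 and did not overlap at ZT1. Over 12 libraries each, the mean was 321 ± 335 CPM in KO and 590.5 ± 521 CPM in WT (SD).

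Myh1, the type IIx form of fast fibres, followed with a mean of 361 CPM and a 9.89-fold range over the 24 libraries. Its values at ZT1 were 109, 130 and 125 CPM in KO and 738, 134 and 226 CPM in WT. Over all time points it ran from 89.1 to 777 CPM in KO (median 163) and from 110 to 881 CPM in WT (median 348), so that the genotypes covered nearly the same range. Myh2, the type IIa form of oxidative fast fibres, varied less. It ran from 60.1 to 203 CPM in KO (median 98.5) and from 48.4 to 204 CPM in WT (median 133), a 4.23-fold range over the 24 libraries against 32.2-fold for Myh4. Within groups the SD of log2 CPM was 1.44 for Myh4, 1.14 for Myh1 and 0.58 for Myh2.

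**Figure D1:**
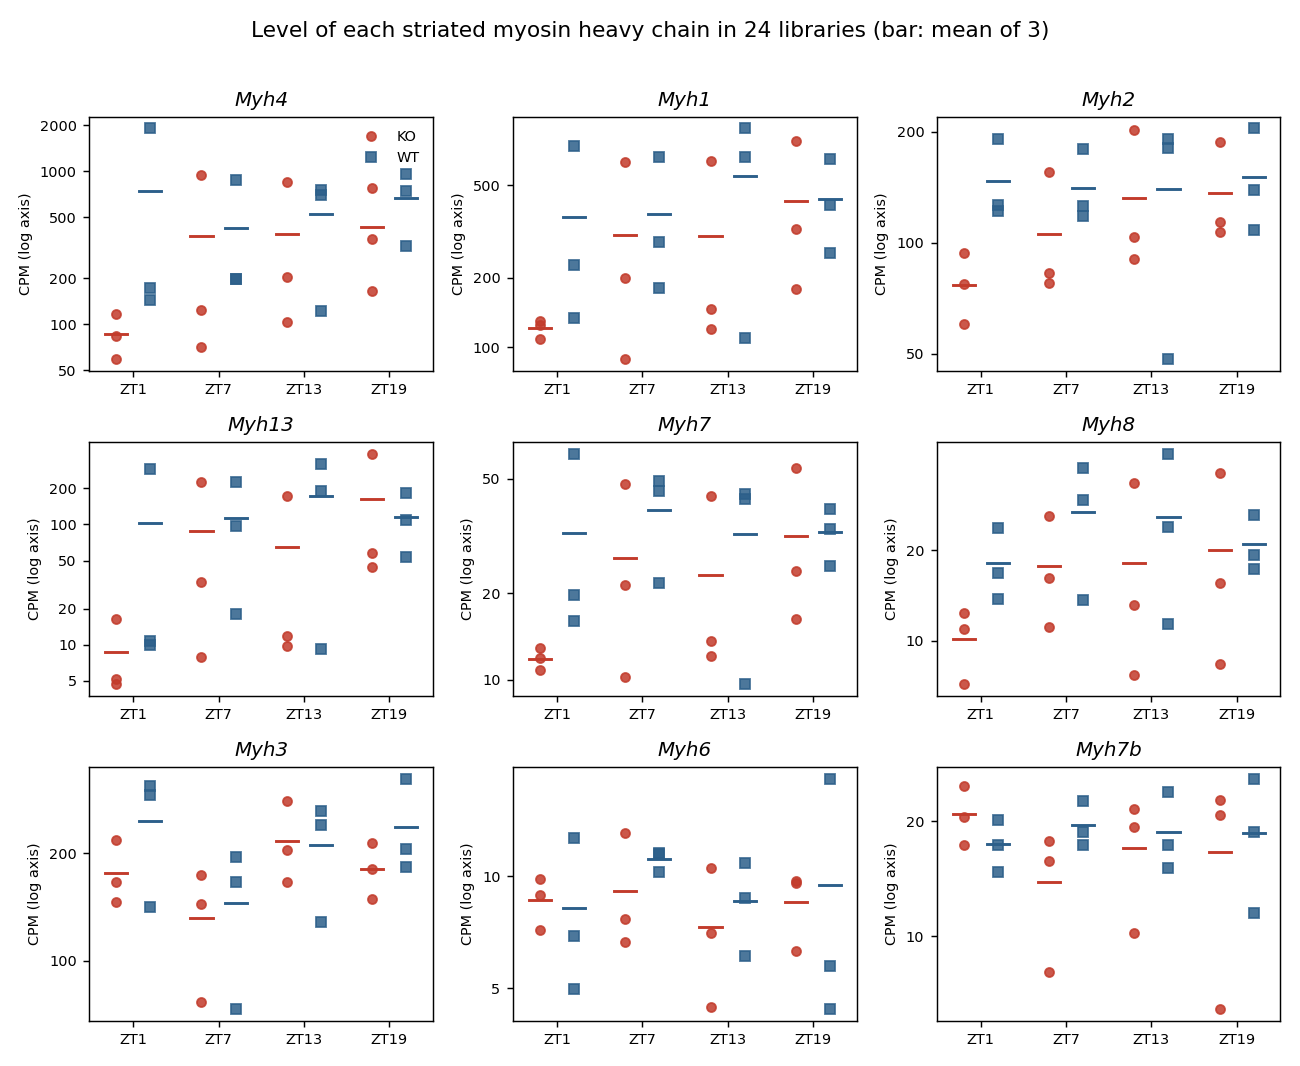
Level of each of the 9 myosin heavy chains in every library, as CPM with TMM scaling on a log axis, at ZT1, ZT7, ZT13 and ZT19, with KO as circles on the left and WT as squares on the right of each pair and a bar at the mean of the 3 libraries of a group. Myh13 spans 4.70 to 389 CPM with libraries of the same group far apart, whereas Myh7b spans 6.44 to 25.8 CPM.

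Myh13, the superfast form of extraocular muscle, varied most. At ZT1 it was at 4.70, 5.19 and 16.3 CPM in KO and 287, 10.6 and 9.98 CPM in WT. At ZT7 it was at 33.5, 7.94 and 225 CPM in KO and 98.0, 227 and 17.9 CPM in WT. Low and high libraries thus stood in the same group in both genotypes. At ZT13 it was at 9.77, 11.8 and 172 CPM in KO and 316, 9.13 and 188 CPM in WT. That WT group spanned 34.6-fold, the widest spread of any of the 9 genes within a group. At ZT19 it was at 57.5, 44.4 and 389 CPM in KO and 53.4, 109 and 183 CPM in WT. The KO and WT ranges overlapped at all 4 time points, and in KO replicate 3 was the highest at each of them. Myh13 was under 20 CPM in 6 of 12 KO and 4 of 12 WT libraries and at 100 CPM or more in 3 of 12 KO and 6 of 12 WT libraries. Its highest library was 82.7 times its lowest, and the SD of log2 CPM within groups was 2.07.

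The developmental forms were present in every library but differed from each other. Myh3, the embryonic form, kept a narrow range with TMM scaling, from 76.6 to 280 CPM in KO (median 170) and from 73.0 to 324 CPM in WT (median 200.2). By library size alone its range over the 24 libraries was 8.18-fold, from 40.1 to 328 CPM, against 7.52-fold for Myh1. At ZT1 it was at 166, 218 and 146 CPM in KO and 309, 142 and 291 CPM in WT, and at ZT7 at 76.6, 144 and 174 CPM in KO and 73.0, 195 and 167 CPM in WT. At ZT13 it was at 204, 166 and 280 CPM in KO and 263, 129 and 241 CPM in WT, and at ZT19 at 149, 181 and 214 CPM in KO and 183, 205 and 324 CPM in WT. The genotypes overlapped at every time point. Its lowest KO library and its lowest WT library were both replicate 1 at ZT7, with total counts of 2405576 and 2069527. In that WT library 41.7% of counts were mitochondrial. The within-group SD of the log2 CPM of Myh3, 0.52 with TMM scaling, was the smallest of the 9 genes. Myh8, the neonatal form, had a mean of 19.7 CPM over the 24 libraries, against 193 CPM for Myh3, and lay at 7.17 to 36.2 CPM in KO (median 12.8) and at 11.3 to 41.8 CPM in WT (median 21.5).

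The slow and cardiac forms were low. Myh7, the slow type I form, ran from 10.2 to 54.6 CPM in KO (median 14.9) and from 9.64 to 61.2 CPM in WT (median 36.4), and it followed Myh4 and Myh13 from library to library. Myh6, the alpha cardiac form, was lowest of all at 4.46 to 13.1 CPM in KO (median 8.28) and 4.39 to 18.3 CPM in WT (median 9.51). Myh7b stayed between 6.44 and 24.7 CPM in KO (median 18.5) and between 11.5 and 25.8 CPM in WT (median 18.0). The end of Myh7b overlaps Trpc4ap on the opposite strand, which had 11829 counts over the 24 libraries against 3170 for Myh7b, and whether reads of that stretch were assigned by strand is not given in the sources used here. Myh6, Myh7 and Myh7b each carry a microRNA in an intron, and the mature strands are shown because they make Myh6, Myh7 and Myh7b a family in sequence although their levels did not move together. Capitals mark the seed, bases 2 to 8, read 5′ to 3′ from RefSeq (GRCm38.p6).
mmu-miR-208a-3p, in Myh6, chr14:54949072-54949093, reverse strand: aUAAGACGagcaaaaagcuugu
mmu-miR-208b-3p, in Myh7, chr14:54975710-54975731, reverse strand: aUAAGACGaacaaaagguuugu
mmu-miR-499-5p, in Myh7b, chr2:155622893-155622913, forward strand: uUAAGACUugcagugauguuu
The seeds of miR-208a-3p and miR-208b-3p are identical, and that of miR-499-5p shares the run UAAGAC with them. The libraries were not made for small RNAs, and the hairpins had 0 to 11 counts (miR-208a), 0 to 5 counts (miR-208b) and 0 to 1 count (miR-499) per library, which does not measure the mature microRNAs.

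To compare genes with each other, CPM was divided by the kilobases of annotated exon. The order of the medians over 24 libraries was Myh1 (37.9 CPM per kb), Myh4 (33.3), Myh3 (30.0), Myh2 (16.8), Myh13 (7.91), Myh7b (2.75), Myh7 (2.65), Myh8 (1.40) and Myh6 (1.31 CPM per kb). Several neighbours in this order could not be separated: Myh1 exceeded Myh4 in 10 of 24 libraries, Myh4 exceeded Myh3 in 16, Myh13 exceeded Myh7b in 15, Myh7b exceeded Myh7 in 12 and Myh8 exceeded Myh6 in 15. Myh2 exceeded Myh13 in 17 libraries. By contrast, Myh3 exceeded Myh2 in 23 libraries and Myh7 exceeded Myh8 in all 24. Part of this order rests on exon length, which for Myh8 is 11772 bases. Divided by coding length, Myh7 (3.93 CPM per kb) stood above Myh7b (3.13) and Myh8 (2.84 CPM per kb), and Myh7 exceeded Myh8 in 19 of 24 libraries. The fast genes of chromosome 11 are close paralogues, and the counts hold uniquely mapped reads, so their levels relative to each other are uncertain where sequence is shared.

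As shares of the summed CPM per kb of the 9 genes, the 3 fast forms and the embryonic form made up most. Other myosin heavy chains, such as Myh9 and Myh15, are not in that sum. Myh4 took 14.0% to 44.3% in KO (median 23.5%) and 17.8% to 55.5% in WT (median 32.7%). Myh1 was steadier, at 18.7% to 35.7% in KO and 20.4% to 35.1% in WT. Myh3 took 8.10% to 39.5% in KO (median 26.5%) and 8.90% to 35.9% in WT (median 13.3%). Myh2 took 6.15% to 16.0% in KO and 4.71% to 17.3% in WT. Myh13 took 0.924% to 16.1% in KO and 1.21% to 12.9% in WT. The leading gene was Myh3 in 6, Myh4 in 5 and Myh1 in 1 of the KO libraries, and Myh4 in 8, Myh3 in 2 and Myh1 in 2 of the WT libraries. In both genotypes the libraries led by Myh3 had a low summed CPM of the 9 genes, at 439.5 to 852 CPM. The 9 libraries with a sum of 1670 CPM or more were led by Myh4 or Myh1. Myh6, Myh7, Myh7b and Myh8 had median shares of 0.974%, 1.61%, 1.79% and 0.884% and stayed under 5% in every library.

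**Figure D2:**
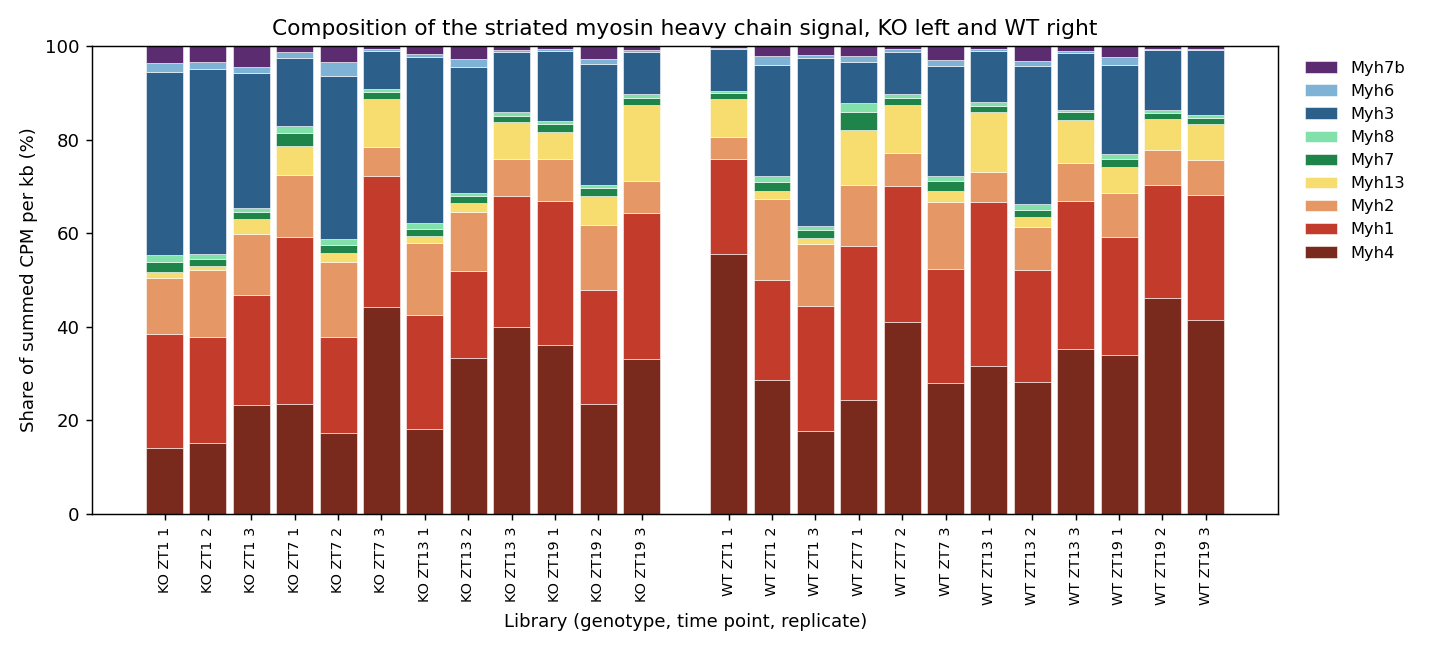
Share of each gene in the summed CPM per kb of the 9 myosin heavy chains, in percent, for each library, with the 12 KO libraries on the left and the 12 WT libraries on the right, each in the order ZT1, ZT7, ZT13 and ZT19. Myh1 keeps 18.7% to 35.7% throughout, while the shares of Myh4, Myh3 and Myh13 change from library to library within groups.

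The summed CPM of the 9 genes ran from 439.5 to 2465 CPM in KO (median 625) and from 460 to 3543 CPM in WT (median 1341). The sums left a gap: 9 libraries lay at 1670 to 3543 CPM, 3 of them KO and 6 WT, and the other 15 lay at 439.5 to 1049 CPM. The high KO libraries were all replicate 3, at ZT7, ZT13 and ZT19, while the high WT libraries had replicate numbers 1, 2 and 3. Titin (Ttn), the giant spring protein of every sarcomere, had a like spread, at 7660 to 36288 CPM in KO (median 11675) and 7675 to 50434 CPM in WT (median 26180).

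The 9 genes fell into those that moved together from library to library and those that did not, a grouping made after the values were seen and given as a description. The 15 pairs among Myh1, Myh2, Myh4, Myh7, Myh8 and Myh13 had Pearson r of log2 CPM from 0.76 to 0.96 over the 24 libraries (median 0.88), and 0.73 to 0.97 after group means were taken out. These genes span fast, slow, neonatal and superfast forms and chromosomes 11 and 14. The 18 pairs of one of them with Myh3, Myh6 or Myh7b had r from -0.16 to 0.59 (median 0.16). After group means were taken out they had -0.21 to 0.70 (median 0.27). The highest of these, Myh3 with Myh2, lay just under the lowest pair of the first set, so Myh3 was not sharply set apart by that measure. Myh3, Myh6 and Myh7b did not follow each other either, with r from -0.32 to 0.42. All points share library depth and the makeup of the dissected tissue, and counts of Myh6 and Myh7b are low.

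**Figure D3:**
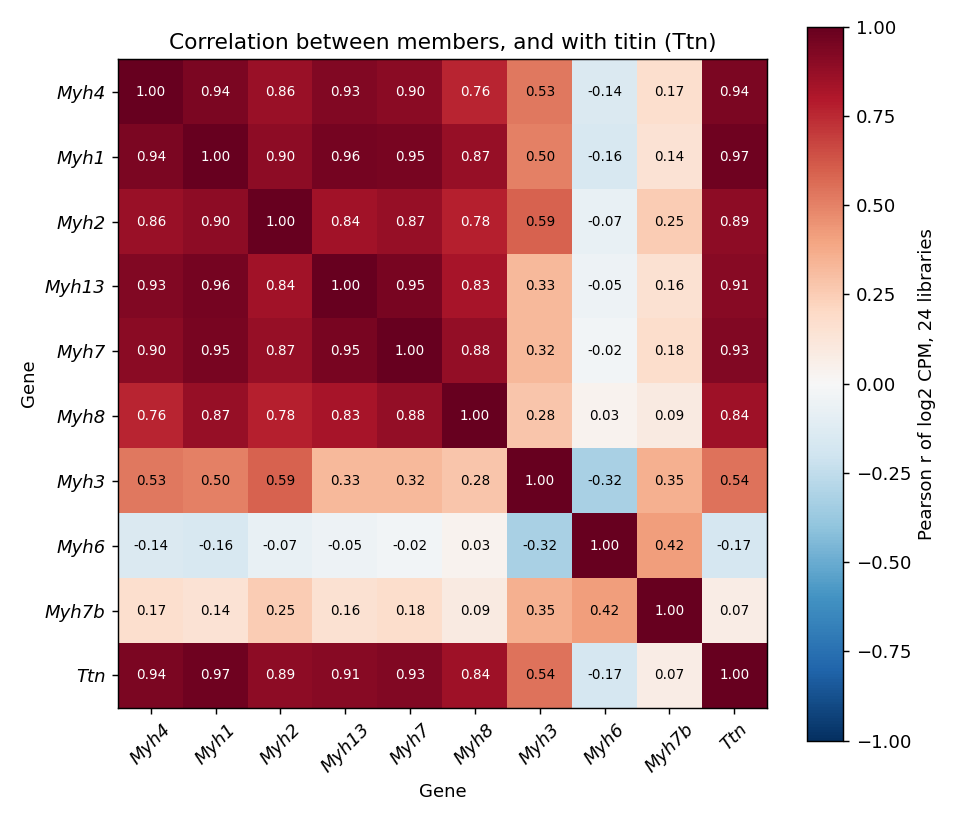
Pearson r of log2 CPM between the 9 myosin heavy chains and Ttn over the 24 libraries, as a colour from -1 to 1 with the value in each cell. Myh1, Myh2, Myh4, Myh7, Myh8, Myh13 and Ttn form a block of high r, and Myh3, Myh6 and Myh7b lie outside it.

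Against Ttn, r was 0.97 for Myh1, 0.94 for Myh4, 0.93 for Myh7, 0.91 for Myh13, 0.89 for Myh2 and 0.84 for Myh8. It was 0.54 for Myh3, 0.07 for Myh7b and -0.17 for Myh6. How closely each myosin kept to the sarcomere was measured by the ratio of its count to a sum of counts. The sum held 30 shared sarcomere genes, 12 fast-fibre and 10 slow-fibre partners, and Ttn was 68.4% to 79.7% of it. For Myh1 the log2 ratio had an SD of 0.30 over the 24 libraries, against 1.11 for its log2 CPM, so it kept nearly a fixed proportion to that sum. Myh7 was alike, with 0.35 against 0.87. Myh13 narrowed only to 1.34, against 2.11, its range over libraries being wider than that of the sum. Taking the ratio widened the spread of Myh3 (0.75 against 0.54), Myh7b (0.99 against 0.49) and Myh6 (1.13 against 0.50). The mean log2 ratio of Myh1 was -6.58 ± 0.30 in KO and -6.50 ± 0.32 in WT (SD, n = 12 each). For Myh13 it was -9.43 ± 1.40 in KO and -8.90 ± 1.28 in WT, within the spread of either genotype.

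**Figure D4:**
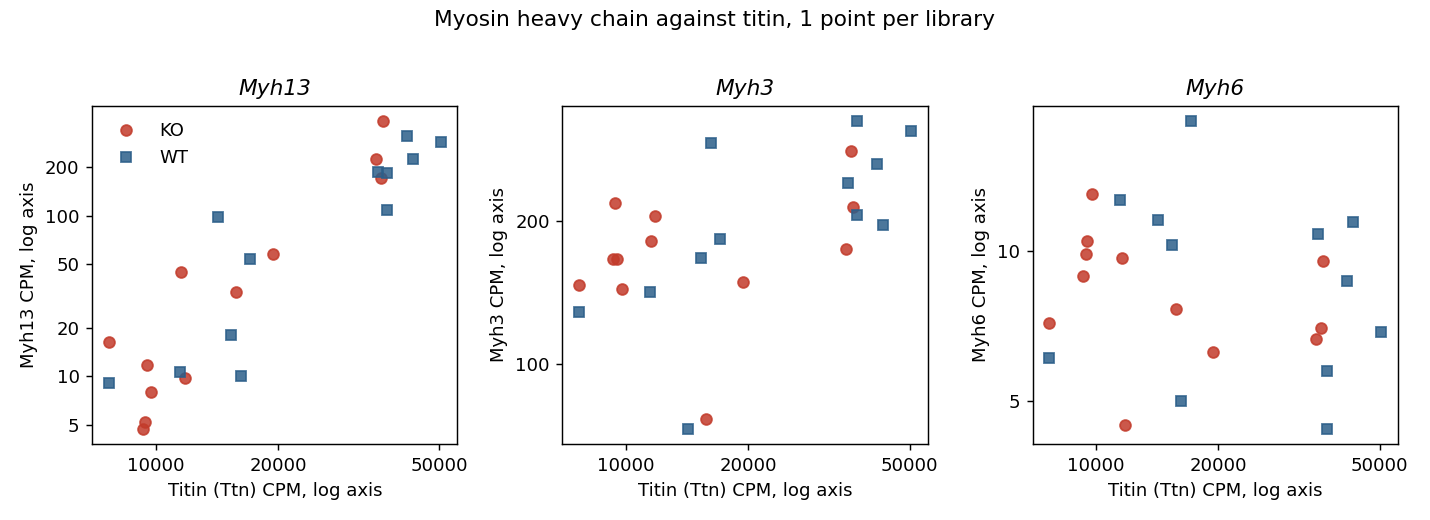
CPM of Myh13, Myh3 and Myh6 against CPM of Ttn, 1 point per library, on log axes, with KO as circles and WT as squares. Over the Ttn range of 7660 to 50434 CPM, Myh13 spans 4.70 to 389 CPM along a rising band (r = 0.91), Myh3 a shallow band (r = 0.54) and Myh6 none (r = -0.17).

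The genes most like each myosin, by Pearson r of log2 CPM over the 24 libraries, differed in kind. For Myh4 they were Actn3 (r = 0.986), the alpha-actinin of fast fibres, Casq1, the calcium store protein of fast fibres, Atp2a1, their calcium pump, the sarcoplasmic reticulum channel Tmem38a and the calcium channel subunit Cacng6. For Myh1 they were Actc1 (r = 0.983), an actin of heart and of immature muscle, Ckmt2, the mitochondrial creatine kinase of sarcomeres, Ndrg2, the calcium channel Cacna1s and Rbfox1. For Myh13 they were again Actc1 (r = 0.974) with Alpk2, Mybphl, Ckmt2 and Agbl1. Those of Myh2 were Vgll2 (r = 0.958), a transcription cofactor of skeletal muscle, Alpk3, myoglobin (Mb), Tmem52 and Acacb. Those of Myh7 were the M-band gene Myom3 (r = 0.965), Agbl1, Mlxipl, Coq8a and Cdh13, and those of Myh8 were Gm43120 (r = 0.918), Slc9a2, Cdh13, Slc36a2 and Oacyl. By contrast, Myh3 was most like Slc35e1 (r = 0.876), Tgm2, Lman2, Card19 and Pxk, and Myh7b like AC061963.1 (r = 0.915), Armc5, Tnk2, Slc38a7 and Plekhh3, neither list holding a sarcomere gene. Myh6 was most like Mdm4-ps (r = 0.80), Plxnb3, Tmem151a and Kcnj10, of which Kcnj10 is a potassium channel of glia. Of 22388 genes, 166 reached an r of 0.9 with Myh1, 171 with Myh4, 91 with Myh7, 80 with Myh13, 66 with Myh2, 7 with Myh8, 2 with Myh7b, and 0 with Myh3 or Myh6.

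Myh15, a heavy chain also known from extraocular muscle, was counted beside the 9 genes, at 244 ± 56.7 CPM in KO and 258 ± 83.4 CPM in WT (SD, n = 12 each). Its r with Myh3 was 0.72 over the 24 libraries, 0.36 within KO and 0.89 within WT. The nonmuscle form Myh9, which epithelia and fibroblasts use, was at 293 ± 62.2 CPM in KO and 333 ± 68.8 CPM in WT. Of the 5 other heavy chains measured (Myh9, Myh10, Myh11, Myh14 and Myh15) 0 reached an r of 0.8 with Myh13, nor did any of 10 RPE markers. Of 30 sarcomere genes 28 did, of 11 fast-fibre genes 9, of 10 slow-fibre genes 1, and of all 22396 genes compared 392. Of 12 genes of immature and extraocular muscle 3 did, and their r with Myh13 ran from -0.46 to 0.97 (median 0.38).

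Averaged over the time points, no myosin heavy chain passed the test between genotypes. All 9 had lower fitted values in KO (7 of 9 with library size alone as the scaling, where Myh6 and Myh7b turned), with a median log2 difference of -0.49, against -0.04 over all 24965 genes tested, and 0 of 9 were called (edgeR's quasi-likelihood test, Benjamini-Hochberg adjusted p under 0.05). Over all genes 0% were called as well, and 1583 had an unadjusted p under 0.05. The log2 difference (KO minus WT) was -1.19 for Myh13 (SE 0.69, adjusted p = 0.820), -1.08 for Myh4 (SE 0.51, adjusted p = 0.782) and -0.70 for Myh1 (SE 0.40, adjusted p = 0.813). Those of Myh7 (-0.62, SE 0.32), Myh8 (-0.49, SE 0.28), Myh2 (-0.39, SE 0.21) and Myh3 (-0.24, SE 0.19) followed, and Myh6 and Myh7b were both at -0.12. Scaling by library size alone moved the median of all genes to 0.16 and that of the 9 genes to -0.27. Myh4 alone of the 9 had an unadjusted p under 0.05 (0.0465). Without WT replicate 1 at ZT1, the difference was -0.52 for Myh4 and -0.36 for Myh13.

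The genotypes lay furthest apart at ZT1, where 7 of 9 fitted values were lower in KO and again 0 of 9 were called, as were 0% of all genes, with 4 of 9 and 2494 of all genes at an unadjusted p under 0.05. Myh7 was at 12.9, 10.8 and 11.9 CPM in KO and 61.2, 16.0 and 19.7 CPM in WT at ZT1. Myh2 was at 60.1, 93.6 and 77.3 CPM in KO and 192, 122 and 126 CPM in WT, and Myh8 at 12.4, 10.9 and 7.17 CPM in KO and 23.7, 16.8 and 13.8 CPM in WT. As with Myh4 and Myh1, a single WT library stood highest, and KO stayed below it and its group mates. The log2 difference was -3.52 for Myh13 (SE 1.53, adjusted p = 0.440) and -3.10 for Myh4 (SE 1.10, adjusted p = 0.349). It was -1.59 for Myh1, -1.45 for Myh7, -0.93 for Myh2, -0.85 for Myh8 and -0.48 for Myh3, while Myh6 (0.08) and Myh7b (0.26) were near 0. The median was -0.93, against -0.02 over all genes. For Myh1, Myh2, Myh4, Myh7 and Myh8 each of the 3 KO libraries was below each of the 3 WT libraries, which held for 10.9% of all genes at ZT1. Without WT replicate 1 at ZT1 the difference was -0.86 for Myh4, -0.20 for Myh13, -0.57 for Myh1, -0.59 for Myh7, -0.69 for Myh2 and -0.60 for Myh8. That library had the highest Myh4 (1906 CPM) and Ttn (50434 CPM) of the 24.

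**Figure D5:**
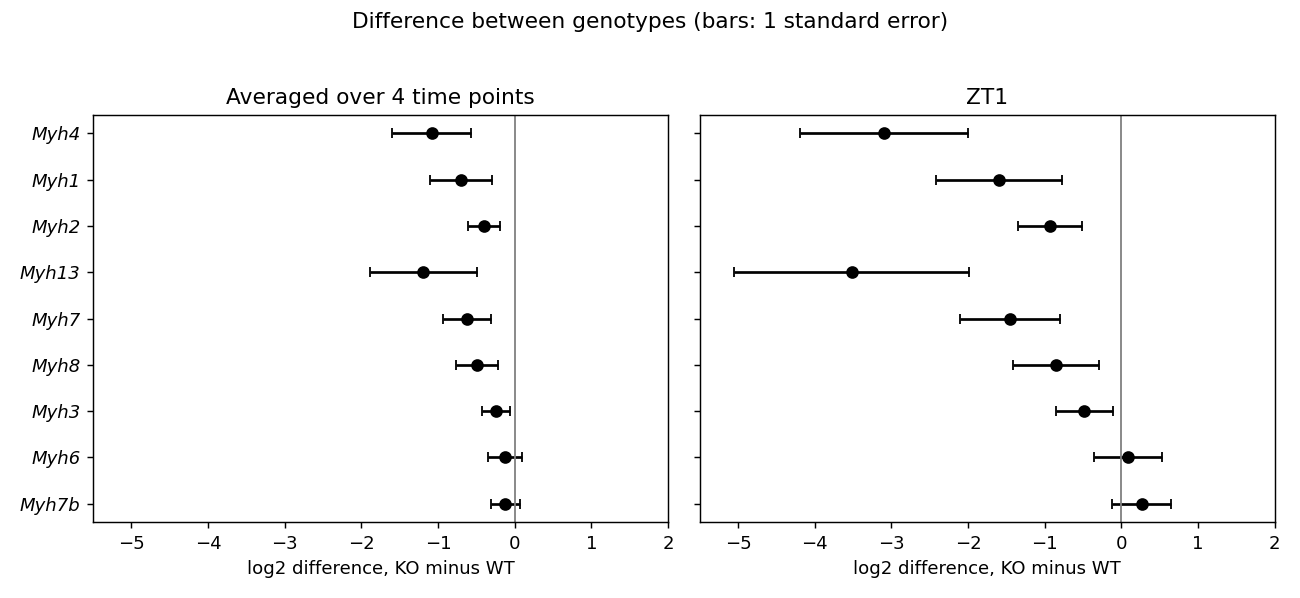
Fitted log2 difference, KO minus WT, of each myosin heavy chain, averaged over the time points and at ZT1, with bars of 1 standard error from edgeR. All 9 averaged values are below 0, those of Myh6 and Myh7b turning above 0 with library size alone, and at ZT1 Myh13 (-3.52) and Myh4 (-3.10) lie lowest with the longest bars.

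Sums of other marker lists were also compared at ZT1. Summed rod markers were at 5293 to 13185 CPM in KO and 1018 to 2625 CPM in WT at ZT1, and all 10 of them had higher fitted values in KO (median log2 difference 2.46, 10 of 10 at an unadjusted p under 0.05, 0 called). Summed lens markers were at 43.5 to 8014 CPM in KO and 58.8 to 350.0 CPM in WT. Summed RPE markers were at 2399 to 2770 CPM in KO and 3037 to 3258 CPM in WT. Gene by gene, however, 6 of the 10 RPE markers had lower and 4 had higher fitted values in KO. Their median log2 difference was -0.15, with 0 of 10 at an unadjusted p under 0.05. The mitochondrial share of counts was 3.86% to 8.81% in KO and 8.22% to 16.4% in WT. The part of these differences in the myosin values was not tested.

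At the later times the groups overlapped for every one of the 9 genes. At ZT7 all 9 were lower in KO, between -0.56 and -0.15, but only 4 of 9 with library size alone and 5 of 9 without WT replicate 2 at ZT7. Of the 9 genes 0 were called (0% of all genes, 1079 of them at an unadjusted p under 0.05). At ZT13 the 8 lower values reached -1.40 (Myh13) and Myh3 was at 0.04, with 5 of 9 lower by library size alone, 5 of 9 without WT replicate 3 at ZT13, 4 of 9 without KO replicate 1 at ZT13 and 4 of 9 without the 5 libraries rich in olfactory receptor counts (replicate 1 of KO at ZT1, ZT7 and ZT13 and of WT at ZT7 and ZT19). At ZT19, 8 were lower, down to -0.64 (Myh4), while Myh13 was at 0.50. The median of the 9 genes was -0.09 there, against -0.04 over all genes, and 55.6% of all genes had a lower mean CPM in KO. The count lower was 2 of 9 without KO replicate 1, 5 of 9 without KO replicate 2 and 4 of 9 without WT replicate 3 at ZT19. Again 0 of 9 were called at ZT13 and at ZT19, with 0% of all genes called at each and 152 and 588 of all genes at an unadjusted p under 0.05. In 0 of 9 genes did the 3 KO libraries all lie below the 3 WT libraries at ZT7, ZT13 or ZT19, where 3.83%, 1.67% and 2.97% of all genes did.

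Time of day was tested within each genotype and over both. In KO 0 of 9 genes were called, against 0.00801% of all genes, namely the clock gene Nr1d1 and Chil1. Myh13 had fitted values 4.18 apart on the log2 scale between ZT19, the highest, and ZT1, the lowest (edgeR, adjusted p = 0.999986). In WT the fitted range over time was 0.11 to 0.78 for the 9 genes, with 0 called (0% of all genes, 617 at an unadjusted p under 0.05). Over both genotypes 0 of 9 were called, against 0.0361% of all genes, which included the clock genes Nr1d1, Nr1d2, Per2, Dbp, Tef and Npas2. The smallest p of a myosin there was that of Myh3 (0.0772), highest at ZT13 and lowest at ZT7. The test of whether the genotype difference changed with time gave p from 0.201 (Myh4) to 0.948, with 0 of 9 and 0% of all genes called and 514 of all genes at an unadjusted p under 0.05.

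Most partners of these motors also had lower fitted values in KO, and 0 of them were called in any of the 9 tests. Of 30 shared sarcomere genes 30 were lower on average over the time points (median log2 difference -0.65, 5 with an unadjusted p under 0.05), as were all 30 with library size alone (median -0.42). Examples are Ttn at -0.71, skeletal actin (Acta1) at 612 ± 562 CPM in KO and 890.1 ± 548 CPM in WT, and nebulin (Neb), the ruler of the thin filament, at 570.4 ± 344 CPM in KO and 865 ± 503 CPM in WT (SD, n = 12 each). The actin-binding gene Xirp2 was at -0.67 (SE 0.31, adjusted p = 0.782). Of 11 fast-fibre partners tested, 11 were lower (median -0.54; 10 of 11 with library size alone), among them the calcium pump Atp2a1 at 1119 ± 1060 CPM in KO and 1718 ± 1138 CPM in WT, parvalbumin (Pvalb) at -0.44, the light chain Myl1 at -0.51 and Casq1 at -0.76. Of the 12 listed, Tnnc2 had 0 to 8 counts and was not tested.

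Of 10 slow-fibre partners 9 were lower (median -0.24), and 6 with library size alone. The exception was Atp2a2, the calcium pump of slow fibres and of other cells, at 219 ± 13.5 CPM in KO and 214 ± 36.1 CPM in WT. Tpm3 was at -0.20, Casq2 at -0.57 and Tnni1 at -0.33. Of 12 genes of immature and extraocular muscle 11 were lower (median -0.37), and 8 with library size alone, with Actc1 at 142 ± 157 CPM in KO and 219 ± 161 CPM in WT, and Chrna1, an acetylcholine receptor subunit, at -0.63. The exception was the adhesion gene Ncam1 at 0.23. Of 17 regulators of fibre type 15 were lower (median -0.31), and 11 with library size alone, with Tead1 at -0.29, Mef2c at -0.31, Mef2a at -0.11 and Mef2d at 0.12. At ZT1 the median log2 difference was -1.48 for the sarcomere genes, -1.95 for the fast partners and -0.79 for the slow partners, with 30 of 30, 11 of 11 and 10 of 10 genes lower (8 of 10 slow partners with library size alone). Without WT replicate 1 at ZT1 these medians were -0.65, -0.67 and -0.39. Beside them, rod markers had a median of 1.04 on average over the time points (10 of 10 higher), RPE markers 0.12 (9 of 10 higher, 4 of 10 without the 5 libraries rich in olfactory receptor counts) and smooth muscle markers -0.10 (5 of 8 lower, 3 of 8 with library size alone), and the part of tissue makeup in the muscle values was not tested.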

How the data were processed

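The deposited values are raw integer counts for each gene. The authors depleted ribosomal RNA, sequenced stranded total RNA, mapped it to mm10 by Bowtie2 and counted uniquely mapped reads by HTSeq (versions 2.3.4 and 0.9.1 in the submitters' processing notes). The strand setting and annotation release are not given in the sources used here, so values of Myh1, Myh2, Myh6, Myh7 and Myh7b, which overlap genes on the opposite strand, are uncertain there. Bowtie2 does not place reads across introns. The authors' later filters on photoreceptor and choroid genes are not in the counts. Columns named dox and cont were taken as KO and WT by the study's methods, and 11 further columns were not used.

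Of 53700 identifiers, 52093 matched GENCODE mouse release M21 and 1607 did not. The filter filterByExpr over the 8 groups (minimum count 10) left 24965 genes, which were tested by the quasi-likelihood F-test of edgeR 4.0.16 (R 4.3.3) after TMM scaling, Benjamini-Hochberg adjusted over all of them, threshold 0.05. KO minus WT, averaged and per time point, and the change of that difference with time were fitted on 24 libraries, time within a genotype on its 12. Sex was not a term. Log2 CPM used a prior count of 2, and correlations carry no test. The tests were tested on simulated data. Alternatives were other scalings, no filter, DESeq2 1.42.0, limma-trend 3.58.1, a replicate block and left-out libraries. The 9 genes are always named, with the 4 genes of each list at the highest mean CPM, genes past a threshold and, for each member, the 5 genes most like it at a mean of at least 1 CPM. Some genes that this rule names are not reported here. Members and lists were chosen with earlier results of these data known. Libraries are separate mice, and no 2 libraries of the same group agreed within sampling noise. Libraries of different groups were not compared in this way.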

Additional observations from a re-analysis of the deposited data

How the results depend on the processing

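Of the 9 myosins, 0 were called in any of the 9 tests under library size alone, median-of-ratios scaling, scaling that leaves out mitochondrial and muscle genes, no filter, DESeq2, limma-trend, the 5 libraries rich in olfactory receptor counts left out, or any library left out. Under a replicate block 1 of them was: Myh13, time in KO, with 3.85 on the log2 scale between ZT19 and ZT1 (edgeR, adjusted p = 0.0150). Without the block it was 4.18, and 2.51 to 5.01 with each library left out, with no call. The labels do not say what a replicate number shares. Same-numbered KO and WT libraries of a time point had correlations of deviations from -0.41 to 0.45, 5 of 12 over 0.1. Same-numbered KO libraries of different time points had -0.02 to 0.63, 15 of 18 over 0.1, and 15 of 24 libraries correlated best with their own number.

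The averaged difference of Myh6 was 0.076 with library size alone, 0.17 without the 5 receptor-rich libraries and -0.19 to 0.11 with each library left out. That of Myh7b was 0.082 with library size alone and 0.090 without the 5 receptor-rich libraries. At ZT1 that of Myh6 was -0.18 to 0.57 with each library left out. With each library left out, Myh4 ranged from -1.56 to -0.52 averaged and -3.59 to -0.86 at ZT1, and Myh13 from -1.81 to -0.36 averaged and -4.32 to -0.20 at ZT1. The causes were not tested.

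Median shares without length correction were 2.19% for Myh7 and 1.64% for Myh8, Myh8 was at 2.84 CPM per kb of coding length, and the median r of the 18 pairs with Myh3, Myh6 or Myh7b was -0.02 with library size alone. Genes called over the whole table depended on the method. Averaged over time, 0 were called, with 1 under no filter and up to 319 with a library left out (WT replicate 2 at ZT13). At ZT1 0 were called, with 118 under no filter and 2 by DESeq2, and at ZT7 0, with 9 under no filter and 4 by DESeq2. For time in KO 2 were called, with 60 under no filter, 50 by DESeq2, 46 under the block, 23 without the 5 libraries, 0 with library size alone and 0 to 24 with each library left out. For time in WT 0 were called, with 795 under no filter and 24 by DESeq2, and for time over both genotypes 9, with 78 by DESeq2, 19 under no filter, 14 by limma-trend, 5 without the 5 libraries, 6 with library size alone and 9 to 61 with each library left out. At ZT19 4 of the 9 myosins were lower under no filter. With 3 mice a group, the within-group spread reached 34.6-fold (Myh13 in WT at ZT13). The lowest count in a library was 13 for Myh6 and 20 for Myh7b. The part of counting error in the spread was not tested.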
